A study of Drosophila melanogaster with 17 samples.

Results

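The proteasome is the barrel-shaped protease that degrades ubiquitin-tagged proteins. Its 20S core stacks rings of alpha subunits, which gate the chamber, around rings of beta subunits, of which Prosbeta1, Prosbeta2 and Prosbeta5 carry the proteolytic sites. The 19S regulatory particle caps the core: its base holds the Rpt ATPases that unfold and thread substrates, with the scaffold and ubiquitin-binding subunits Rpn1, Rpn2, Rpn10 and Rpn13, and its lid holds the deubiquitinase Rpn11. Subunits are needed in fixed proportion, and in flies and mammals their genes are known to be induced together when proteasome activity falls short, by the factor CncC in the fly.

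Genes were taken by FlyBase symbol (Prosalpha or Prosbeta with a number, Rpn with a number, Rpt with a number). Of 48 such genes, 47 were among the 13479 genes of the expression table. They comprise 32 constitutive subunits and 15 paralogs, whose symbols add R or T, with or without a further number. Several of these paralogs are known as testis isoforms. The paralog Prosalpha4T1 was not analysed here. Of the 32 constitutive subunits, 30 averaged at least 10 TPM over all libraries and are called the 30 subunits below. The other two, Prosalpha1 and Rpn3, were listed at or near 0 and are treated separately.

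The RNA was that bound to glial ribosomes, purified from heads of flies in which the pan-glial driver repo-GAL4 expresses a GFP-tagged ribosomal protein, RpL10A (translating ribosome affinity purification, TRAP-seq). Both arms carry the transgenes and were sampled at lights-on, ZT0: TBI flies had received repeated strikes to the head (the dCHI model of closed head injury), and sham flies were handled in parallel without injury. TBI libraries numbered 3 on day 1, 3 on day 3 and 2 on day 7 after injury, since the study removed TBI replicate 3 of day 7, and sham libraries numbered 3 on each day, giving 17 libraries from pooled heads. The sample labels number these days 3, 6 and 10, and give the flies as female where the study's methods give male.

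Values are TPM, which are scaled for transcript length and carry no read depth, so that no counting error could be given and the error is the spread between libraries. Nothing in the labels says that replicates came from separate cohorts, and p-values therefore measure only the spread between these libraries. The glial markers repo and alrm were present in every library, at 31.1 to 92.7 TPM and 243 to 591 TPM. The 10 photoreceptor markers were far more abundant in sum, at 26823 to 35225 TPM in TBI libraries of day 1 and 46525 to 48066 TPM in sham libraries of day 1, so the purified RNA was not glial alone. A summed level of 16 midgut digestive proteases stood at 531, 923 and 483 TPM in the TBI libraries of day 1, at 806 TPM in TBI replicate 1 of day 7 and at 740 TPM in sham replicate 2 of day 3, and at no more than 4.29 TPM in the other 12 libraries. The part of that RNA in any result was not tested. In bulk RNA, fewer cells of a type and less RNA per cell cannot be told apart.

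Core subunits had the higher TPM, in RNA that was amplified before sequencing, which can distort levels between genes. The median of the mean levels was 73.5 TPM for the 20S core, with 70.8 TPM for the alpha ring and 73.5 TPM for the beta ring, and 47.7 TPM for the 19S particle, with 40.0 TPM for the base and 47.7 TPM for the lid. The ratio of the summed core to the summed 19S level lay between 1.16 and 1.53 in all 17 libraries. It was 1.45 ± 0.07 in TBI and 1.297 ± 0.06 in sham libraries of day 1 (SD, n = 3 each), with ranges that did not overlap: 1.40 to 1.53 in TBI and 1.23 to 1.33 in sham. On day 3 and day 7 the ranges of this ratio did overlap. The 4 highest ratios of all 17 libraries were those of the 3 TBI libraries of day 1 and of sham replicate 2 of day 3 (1.49), which all carried digestive protease RNA, while TBI replicate 1 of day 7, which also did, stood at 1.27.

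**Figure D1:**
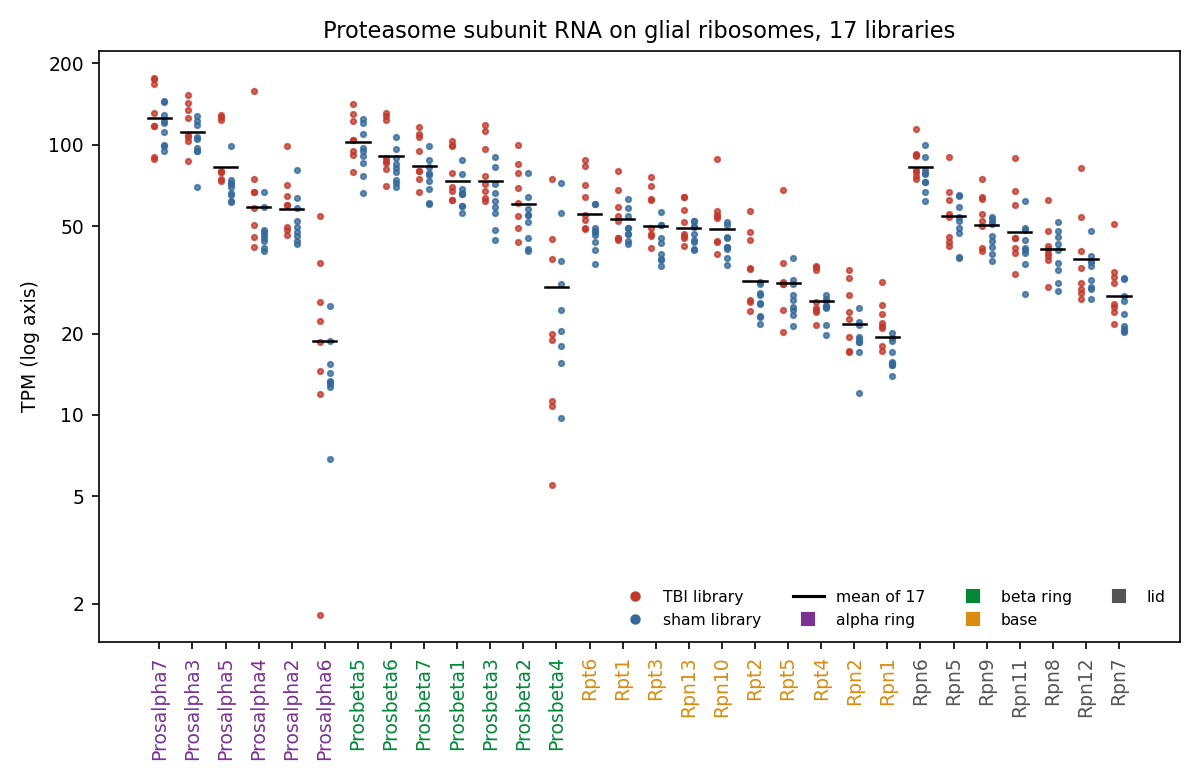
TPM (log axis) of the 30 subunits in each of 17 libraries, in red for TBI and blue for sham, ordered within each subcomplex by the mean over all libraries (black bar). Core subunits average up to 125 TPM (Prosalpha7), and Prosalpha6 and Prosbeta4 spread over far more of the axis than the other subunits.

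The most abundant of the 30 subunits was Prosalpha7 of the alpha ring, with a mean of 125 TPM over 17 libraries. Next were Prosalpha3 (111 TPM) and the chymotrypsin-like catalytic subunit Prosbeta5 (102 TPM). Prosalpha1 and its paralog Prosalpha1R, which are outside the 30, together averaged 130 TPM. The ATPase Rpt6 (55.5 TPM) led the base and Rpn6 (82.4 TPM), a scaffold of the lid, led the lid. The lowest in each subcomplex were Prosalpha6 (18.8 TPM), Prosbeta4 (29.8 TPM), Rpn1 (19.4 TPM) and Rpn7 (27.5 TPM). Across libraries the coefficient of variation had a median of 24.3% over the 30 subunits, against 23.7% over 5349 genes averaging at least 10 TPM, so as single genes they varied about as much as other genes of that level.

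Prosbeta4 and Prosalpha6 were the exceptions, with coefficients of variation of 71.1% and 64.7%. Prosbeta4 stood at 37.6, 19.97 and 44.7 TPM in TBI and 37.2, 9.73 and 15.5 TPM in sham libraries of day 1. On day 3 its levels were 18.9, 5.49 and 10.8 TPM in TBI against 24.4, 72.0 and 55.7 TPM in sham libraries, and on day 7 they were 74.8 and 11.3 TPM in TBI against 30.6, 20.4 and 17.9 TPM in sham libraries. Replicates of a group thus differed several-fold, and the groups were apart on day 3 alone. Prosalpha6 stood at 18.6, 12.0 and 36.6 TPM in TBI and 14.3, 12.6 and 15.4 TPM in sham libraries of day 1, at 1.82, 14.5 and 22.2 TPM in TBI and 13.3, 13.4 and 6.85 TPM in sham libraries of day 3, and at 54.5 and 26.2 TPM in TBI and 13.02, 18.8 and 25.3 TPM in sham libraries of day 7. Its groups overlapped on day 1 and day 3. Both genes also followed the other subunits least: the correlation of a subunit with the mean of the other 29 over 17 libraries had a median of 0.87 and exceeded 0.8 for 24 of 30, and was 0.38 for Prosalpha6 and 0.47 for Prosbeta4.

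The remaining subunits moved largely as a block from library to library. The summed level of the 30 subunits was 1558, 2253 and 2115 TPM in TBI and 1398, 1538 and 1462 TPM in sham libraries of day 1. On day 3 it was 1423, 1476 and 1576 TPM in TBI against 1243, 1960 and 1799 TPM in sham libraries. On day 7 it was 2684 and 1781 TPM in TBI against 1700, 1463 and 1398 TPM in sham libraries. All TBI libraries exceeded all sham libraries on day 1 and day 7, and the groups overlapped on day 3. The 3 highest sums belonged to libraries with digestive protease RNA (TBI replicate 1 of day 7, TBI replicates 2 and 3 of day 1), as did the fourth (sham replicate 2 of day 3), while TBI replicate 1 of day 1, with 531 TPM of that RNA, summed to 1558 TPM.

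**Figure D2:**
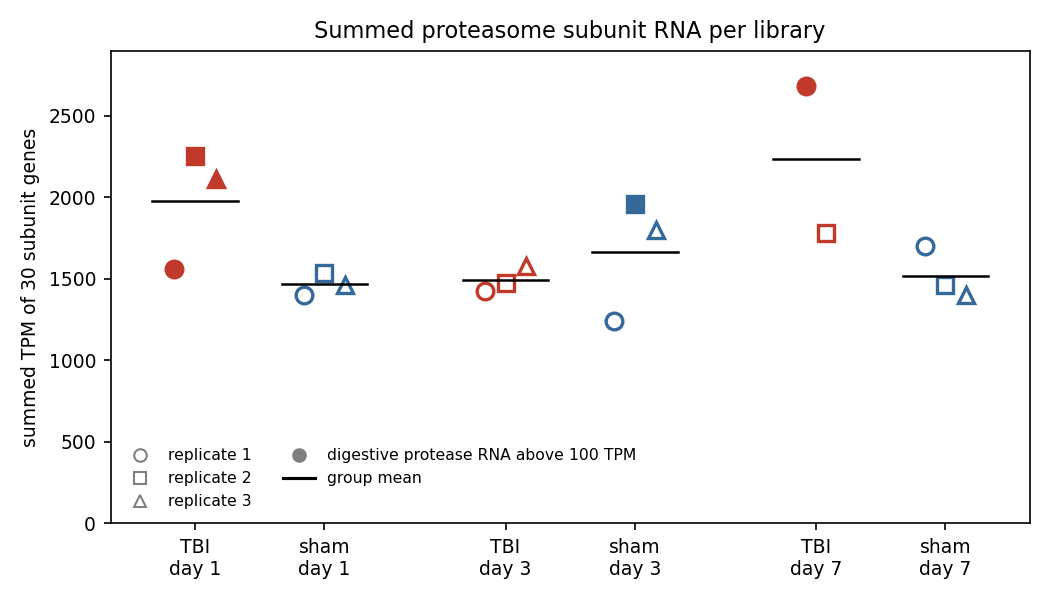
Summed TPM of the 30 subunits (axis from 0) in each library by day and arm, TBI left of sham, with replicate number as the marker shape, the group mean as a bar, and filled markers for the 5 libraries above 100 TPM of digestive protease RNA. The 3 TBI libraries of day 1 sit between 1558 and 2253 TPM, above the sham libraries at 1398 to 1538 TPM.

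Day 1 asks how glial ribosome-bound RNA differs shortly after injury. All 30 subunits had a higher fitted level in TBI than in sham, and their log2 fold changes had a median of 0.37, against −0.07 over 5292 genes averaging at least 10 TPM, of which 40.5% were higher in TBI. With limma and the study's limits (a log2 fold change of 0.6 or more in size, a Benjamini-Hochberg adjusted p of 0.1 or less), 1 of the 43 members tested was called, the alpha-ring subunit Prosalpha4, at 2.86% called in either direction over all 12085 genes tested. That is 1 of 43 members, near the background. At an unadjusted p under 0.05, 17 of 30 were higher and 0 lower, where 10.1% of genes averaging at least 10 TPM were higher. That count was 25, 6 and 4 with replicate 1, 2 or 3 left out, 9 without the replicate block and 7 with all 17 libraries in one fit, and the median stayed between 0.32 and 0.48 in those fits. Each of the 30 lay above the median gene of that level, from the 64.3rd percentile (Rpn8) to the 96.1st, and 29 lay at or above the 75th. Genes of one complex are not independent of one another, and these counts are a description.

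Prosalpha4 (FBgn0004066, X:16276270-16277587 in the BDGP6.54 annotation, plus strand) had 67.0, 74.3 and 66.8 TPM in TBI libraries, against 46.1, 45.2 and 40.3 TPM in sham libraries of day 1. The groups did not overlap, and the log2 fold change was 0.65 (SE 0.09, adjusted p = 0.0729). The call was lost when any replicate number was left out, with the log2 fold change between 0.62 and 0.71 and adjusted p between 0.155 and 0.325. Each such fit also loses the partner library. Calls over all genes fell from 346 to 214, 10 and 72 without replicate 1, 2 and 3. The lost call thus cannot tell a weak difference from fewer libraries. It was also lost when all 17 libraries shared one estimate of the spread (adjusted p = 0.459).

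The next lowest p-values belonged to beta-ring subunits that passed no adjusted threshold. Prosbeta3, a non-catalytic subunit, had 67.4, 118 and 96.4 TPM in TBI against 44.4, 55.7 and 61.9 TPM in sham libraries, which did not overlap (log2 fold change 0.76, SE 0.13, adjusted p = 0.107). Prosbeta7, also non-catalytic, had 79.6, 116 and 107 TPM in TBI against 60.6, 82.8 and 77.5 TPM in sham libraries, which overlapped (0.44, SE 0.07, adjusted p = 0.105). Prosbeta3 was past both thresholds when a pseudocount of 0.1 replaced 1 and when genes averaging under 1 TPM were left out, the second of which also called Prosalpha5.

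The 3 catalytic subunits were higher in TBI by similar amounts. Prosbeta1 (caspase-like) had 62.4, 103 and 98.5 TPM in TBI against 55.9, 59.3 and 66.4 TPM in sham libraries, a log2 fold change of 0.50 (SE 0.15, adjusted p = 0.22). Prosbeta2 (trypsin-like) had 60.6, 84.7 and 78.4 TPM in TBI against 51.7, 55.1 and 54.8 TPM in sham libraries, and was the one whose groups did not overlap (0.45, SE 0.11, adjusted p = 0.175). Prosbeta5 had 91.4, 142 and 130.3 TPM in TBI against 76.3, 109.6 and 97.2 TPM in sham libraries (0.35, SE 0.08, adjusted p = 0.156). In all of them TBI replicate 1 was the low library of its group.

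Within the 19S particle the differences were smaller on day 1. The median log2 fold change was 0.46 in the alpha ring (6 genes), 0.45 in the beta ring (7), 0.34 in the base (10) and 0.26 in the lid (7). On day 7 the base (0.63) and lid (0.60) had the higher medians, against 0.50 in the alpha ring and 0.45 in the beta ring. The differences between these medians were not tested on either day. Rpt6 had 49.1, 83.6 and 70.6 TPM in TBI against 40.7, 43.5 and 47.9 TPM in sham libraries, without overlap (0.58, SE 0.15, adjusted p = 0.194). Rpn1, a base scaffold that docks ubiquitin receptors, had 17.3, 23.7 and 25.5 TPM in TBI against 15.5, 15.3 and 15.3 TPM in sham libraries (0.48, SE 0.16, adjusted p = 0.243), also without overlap. In the lid, Rpn11 had 45.2, 67.5 and 59.8 TPM in TBI against 39.6, 48.2 and 44.5 TPM in sham libraries (0.36, SE 0.10, adjusted p = 0.2), and its groups overlapped. Its partner Rpn8 was the least changed of all 30, with 42.3, 39.8 and 38.8 TPM in TBI against 42.9, 40.7 and 34.3 TPM in sham libraries (0.04, SE 0.09). The lid genes Rpn6 (74.5, 90.6 and 92.6 TPM in TBI against 78.8, 72.5 and 66.8 TPM in sham) and Rpn7 (23.9, 33.8 and 32.3 TPM in TBI against 21.3, 26.4 and 23.6 TPM in sham) overlapped between groups.

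In all, 10 of 30 subunits did not overlap between the day 1 groups, each with TBI above sham, against 10.1% of all genes tested and 8.56% of those averaging at least 10 TPM. All 3 TBI libraries of day 1 carried digestive protease RNA and no sham library of that day did, so no comparison within day 1 is free of it. Summed fat body markers (9 genes) were 5425 to 12438 TPM in TBI and 13097 to 22006 TPM in sham libraries of day 1, and summed muscle markers (8 genes) were 1354 to 1970 TPM in TBI and 1167 to 1244 TPM in sham libraries, both without overlap. Summed glial markers (10 genes) overlapped, at 3238 to 4512 TPM in TBI and 4343 to 6323 TPM in sham libraries. Their part in the subunit levels was not tested.

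**Figure D3:**
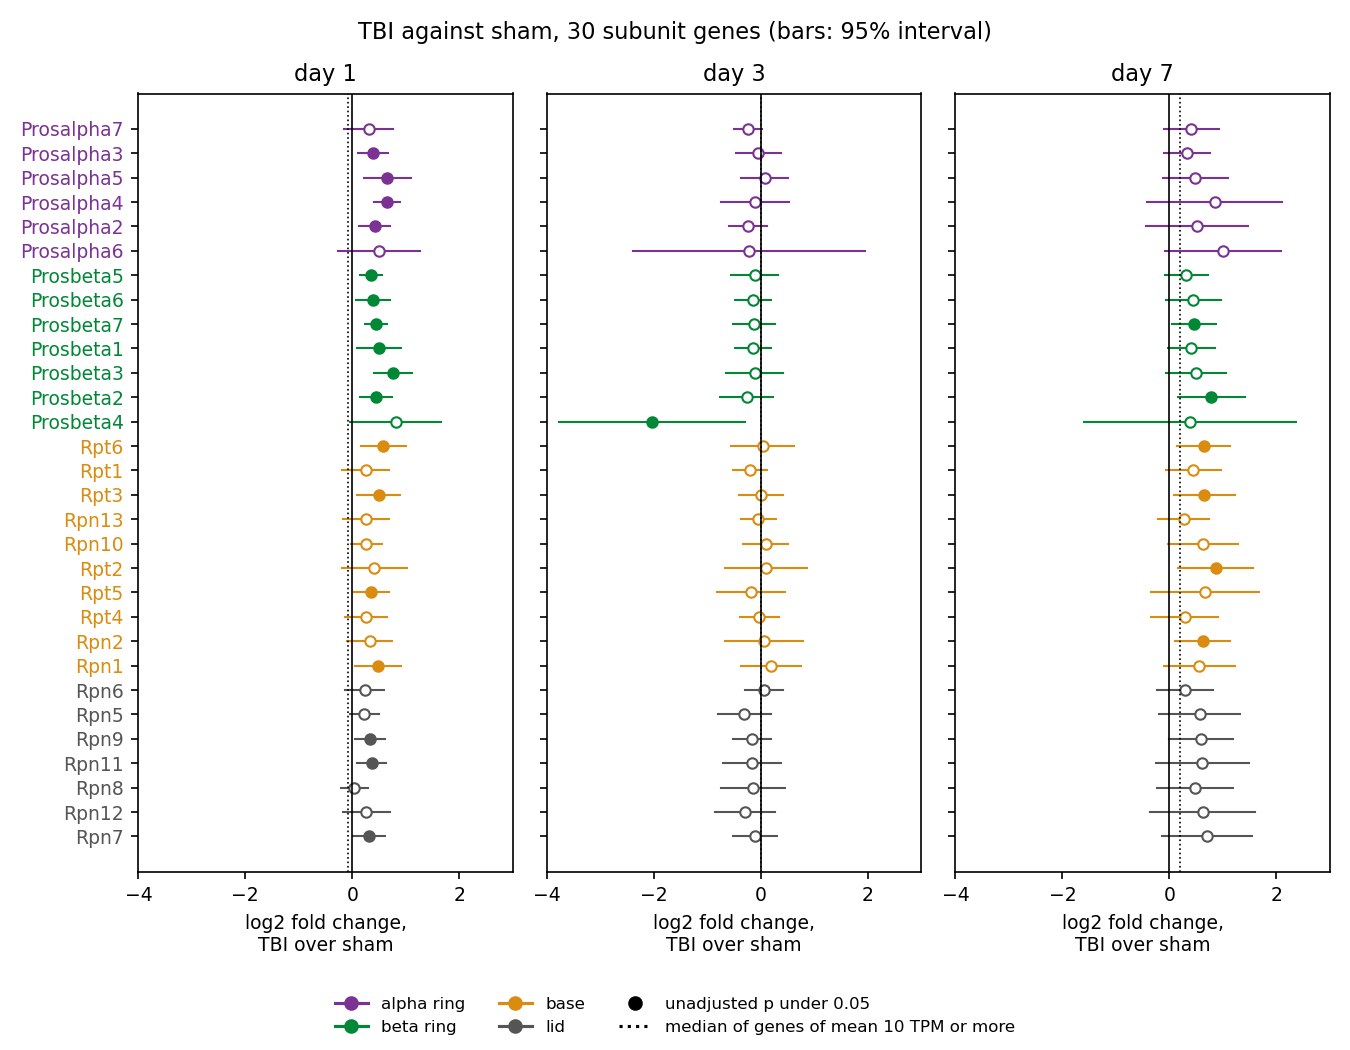
Log2 fold change of each of the 30 subunits, TBI over sham, on days 1, 3 and 7, on the log2(TPM + 1) scale with limma's 95% interval, filled where the unadjusted p is under 0.05, with the dotted line at the median of genes averaging at least 10 TPM. All 30 points lie above 0 on day 1 and day 7, and 23 of 30 lie below 0 on day 3.

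On day 3 the direction was mixed. TBI was higher for 7 of 30 subunits and lower for 23, and the log2 fold changes had a median of −0.12, against 0.01 over genes averaging at least 10 TPM, of which 51.9% were higher in TBI. None of the 40 members tested was called, nor was any of the 11835 genes (0% called). At an unadjusted p under 0.05 limma gave 1 of 30, Prosbeta4, which was lower in TBI (log2 fold change −2.04, SE 0.64, adjusted p = 0.815), where 4.78% of genes averaging at least 10 TPM were. Prosbeta4 and Prosalpha2 were the 2 subunits whose groups did not overlap, both with TBI lower, where 3.13% of all genes did so.

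Prosalpha7 had 90.03, 117 and 117 TPM in TBI against 99.0, 145 and 143 TPM in sham libraries of day 3 (−0.24, SE 0.09, adjusted p = 0.815), and Prosalpha4 had 58.5, 41.9 and 45.7 TPM in TBI against 43.9, 66.8 and 47.5 TPM in sham libraries (−0.10, SE 0.23). Both overlapped between groups. So did the catalytic subunits and Rpn11. Prosbeta1 had 62.5, 69.9 and 67.4 TPM in TBI against 59.3, 87.4 and 78.0 TPM in sham libraries of day 3. Prosbeta2 had 43.8, 49.3 and 54.3 TPM in TBI against 40.5, 78.3 and 64.2 TPM in sham libraries. Prosbeta5 had 79.4, 94.4 and 103.6 TPM in TBI against 66.2, 124.9 and 120.0 TPM in sham libraries. Rpn11 had 33.2, 39.7 and 45.3 TPM in TBI against 27.9, 61.7 and 49.0 TPM in sham libraries. The direction on this day rested on single replicates. Without replicate 2, whose sham library carried digestive protease RNA, 18 of 30 subunits were higher in TBI, with a median of 0.03. Without replicate 1, whose sham library had the lowest sum of all 17, 1 of 30 was higher, with a median of −0.27. Summed glial markers were apart on day 3 too, at 3136 to 3229 TPM in TBI and 3692 to 4336 TPM in sham libraries. So were summed muscle markers, at 1419 to 1649 TPM in TBI and 1022 to 1412 TPM in sham libraries. Summed photoreceptor, fat body and neuronal markers overlapped. The part of these markers in the subunit levels was not tested.

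On day 7 all 30 subunits were again higher in TBI, by a median of 0.54 on the log2 scale. The median over 5572 genes averaging at least 10 TPM was 0.21 and 73.6% of them were higher, so that much of the direction is shared with the table as a whole. None of the 41 members tested was called, as was none of 11966 genes (0% called), and the lowest adjusted p of a subunit was 0.717. At an unadjusted p under 0.05, 6 of 30 were higher (Rpt6, Prosbeta2, Rpt2, Rpn2, Rpt3 and Prosbeta7) where 2.32% of genes of that level were. With 1 sham library left out, that count lay between 0 (without sham replicate 2 or 3) and 10 (without sham replicate 1). With 1 TBI library left, the median was 0.23 without TBI replicate 1, against 0.09 over genes averaging at least 10 TPM. Without TBI replicate 2 it was 0.82 against 0.33. Groups did not overlap for 19 of 30, each with TBI higher, against 15.1% of all genes and 13% of those averaging at least 10 TPM. Under median-of-ratios or upper-quartile scaling 27 of 30 were above 0, with a median of 0.24 against −0.10, which left the distance from the other genes at 0.33.

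Rpt6 had 87.8 and 64.2 TPM in TBI against 47.5, 49.2 and 46.5 TPM in sham libraries (log2 fold change 0.64, SE 0.20, adjusted p = 0.717), and Prosbeta2 had 99.7 and 69.0 TPM in TBI against 57.9, 45.3 and 41.1 TPM in sham libraries (0.79, SE 0.25, adjusted p = 0.717). In both, each TBI library was above each sham library. Prosbeta1 had 100.1 and 78.7 TPM in TBI against 68.3, 65.8 and 65.7 TPM in sham libraries, and Prosbeta5 had 122 and 104 TPM in TBI against 94.998, 85.2 and 91.1 TPM in sham libraries, again without overlap. Prosalpha4 had 158 and 50.3 TPM in TBI against 59.0, 41.4 and 48.5 TPM in sham libraries (0.85, SE 0.50), and its difference came from TBI replicate 1 alone.

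TBI replicate 1 of day 7, which carried digestive protease RNA, was the higher of the TBI libraries for all 30 subunits, as with Rpn11 (89.2 and 41.6 TPM in TBI against 40.7, 41.5 and 36.1 TPM in sham), Rpn7 (50.8 and 30.8 TPM in TBI against 31.9, 20.8 and 20.4 TPM in sham) and Rpn6 (114 and 91.7 TPM in TBI against 99.4, 80.4 and 72.8 TPM in sham). Without it, 29 of 30 subunits were still higher in TBI, by a median of 0.23 against 0.09 over genes averaging at least 10 TPM. Without TBI replicate 2 instead, 12 members were called, as were 11.6% of 11830 genes, with the remaining TBI library assumed to vary as the sham libraries do. Digestive protease RNA was 0.774 TPM in TBI replicate 2 and at most 4.29 TPM in the sham libraries of day 7. Other marker sums were also apart on day 7: glial markers at 2184 to 2739 TPM in TBI and 3397 to 4758 TPM in sham libraries, muscle markers at 1279 to 2142 TPM in TBI and 981 to 1113 TPM in sham libraries, and 9 neuronal markers at 1141 to 1469 TPM in TBI and 1011 to 1073 TPM in sham libraries. Their part in the subunit levels was not tested.

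The difference between days was tested as an interaction. All 30 subunits had a smaller TBI effect on day 3 than on day 1, with a median difference of −0.52 on the log2 scale against 0.11 over genes averaging at least 10 TPM. Of them, 13 passed an unadjusted p under 0.05, where 7.59% of those genes did so in that direction, and 0 were called (0.0161% of 12446 genes were called), the lowest adjusted p being 0.222 (Prosalpha2, −0.66, SE 0.16). The 13 became 7 without the replicate block and 5 with all 17 libraries in one fit, and lay between 4 (without replicate 2 of day 1) and 19 (without replicate 1 of day 3) with a replicate left out. It was 5, with a median of −0.37, without replicate 2 of day 3, whose sham library carried digestive protease RNA. Among the sham libraries themselves, 26 of 30 subunits were higher in sham on day 3 than in sham on day 1, by a median of 0.14 against −0.08 over genes averaging at least 10 TPM, of which 38.1% were higher, with 0 past an unadjusted p under 0.05 (3.36% of all 11657 genes) and 0 called (0% of those genes). Without sham replicate 2 of day 3, the library with digestive protease RNA, 14 of 30 were higher, with a median of 0.00, and without sham replicate 1 of day 3, 29 of 30 were, with a median of 0.32. In sham of day 7 against sham of day 1, 20 of 30 were higher, by a median of 0.10 against −0.07, with 0 past that p (3.36% of 11555 genes) and 0 called (0%). That became 14 of 30 without sham replicate 1 of day 7.

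Between day 7 and day 1, 24 of 30 subunits had the larger TBI effect on day 7. So did 77.6% of genes averaging at least 10 TPM. The median was 0.13 against 0.28 over those genes, and 10 of 30 subunits lay above that median gene. Under median-of-ratios scaling the median of the 30 was −0.20. The direction rested on 1 library: without TBI replicate 1 of day 7, with its digestive protease RNA, 8 of 30 were larger on day 7 (median −0.14), and without TBI replicate 2 of day 7, 30 of 30 were (median 0.41). None passed an unadjusted p under 0.05, where 3.8% of all genes did, and none was called (0.04% of 12493 genes were). Between day 7 and day 3 all 30 had the larger effect on day 7, by a median of 0.64 against 0.15. Of these, 7 passed an unadjusted p under 0.05, where 2.27% of genes averaging at least 10 TPM did so in that direction, and 0 were called (0.0162% of 12347 genes were). All 30 were still larger without TBI replicate 1 of day 7, by a median of 0.39 against 0.08 over genes averaging at least 10 TPM. Without TBI replicate 2 of day 7 the medians were 0.87 and 0.26. Each of these fits had 1 TBI library left on day 7. The contrasts between days share the libraries of each day and are not independent of the comparisons above.

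Averaged over the 3 days, 29 of 30 subunits were higher in TBI, Prosbeta4 being the exception. The median was 0.26 on the log2 scale, against 0.05 over genes averaging at least 10 TPM. None was called (0.987% of 12665 genes were), and 14 were higher at an unadjusted p under 0.05, where 8.88% of genes averaging at least 10 TPM were. The lowest adjusted p-values were those of Rpn1 (0.41, SE 0.11, adjusted p = 0.118), Rpt6 (0.42, SE 0.13, adjusted p = 0.158) and the ATPase Rpt3 (0.38, SE 0.12, adjusted p = 0.171). Rpn1 had 21.8, 20.9 and 18.0 TPM in TBI against 14.0, 19.3 and 20.1 TPM in sham libraries of day 3, and 31.1 and 21.3 TPM in TBI against 18.7, 17.1 and 15.7 TPM in sham libraries of day 7, so its groups overlapped on day 3 alone. With sham replicate 2 of day 3 and TBI replicate 1 of day 7 left out together, 29 of 30 were still higher. Their median was 0.22, against 0.01 over genes averaging at least 10 TPM. That fit cannot set digestive protease RNA aside, since the 3 TBI libraries of day 1, which all carried it, stayed in. The sham library left out also had the highest sum of its group. Without TBI replicate 1 of day 7 alone, 28 were higher (median 0.18). With all libraries, 5 passed an unadjusted p under 0.05 under median-of-ratios scaling (median 0.16 against −0.04 over those genes). Under upper-quartile scaling 3 passed (0.14 against −0.06).

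Prosalpha1 and its paralog Prosalpha1R are tandem genes on chromosome arm 2R, with 1734 bases between them, and their last 3 exons are of equal length (100, 177 and 580 bases). Prosalpha1, an essential subunit of the alpha ring, was listed at or near 0 in 15 of 17 libraries, the others being TBI replicate 1 of day 7 (6.96 TPM) and sham replicate 1 of day 3 (11.9 TPM). Prosalpha1R was listed at 142, 178 and 148 TPM in TBI and 123, 133 and 108 TPM in sham libraries of day 1, at 121, 86.8 and 111 TPM in TBI and 115, 131 and 137 TPM in sham libraries of day 3, and at 208 and 118 TPM in TBI and 144, 99.5 and 91.8 TPM in sham libraries of day 7. How the quantification divides reads between the copies is uncertain, and their sum is the safer value. The sum was higher in TBI on day 1, by a log2 fold change of 0.35 (SE 0.09, adjusted p = 0.178), and was not called on any day. Rpn3, an essential lid subunit, was listed at 0 in all libraries but sham replicate 3 of day 7 (1.71 TPM), and no statement about its expression is drawn from that.

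The other 14 paralogs in the table averaged under 2 TPM, 11 of them never reached 1 TPM, and Prosbeta5R1 and Rpn12R were listed at 0 throughout. The summed level of 10 testis markers was 1.59 to 8.21 TPM over the 17 libraries. Rpn13R, a paralog of the ubiquitin receptor Rpn13, was the highest, at 5.34, 1.70 and 0.972 TPM in TBI against 0.714, 1.59 and 0.211 TPM in sham libraries of day 1. On day 3 it stood at 5.04, 0.976 and 1.16 TPM in TBI against 1.76, 0.984 and 0.244 TPM in sham libraries, and on day 7 at 7.85 and 1.84 TPM in TBI against 1.29, 0.436 and 0.229 TPM in sham libraries. Replicate 1 was the high library of every TBI group, and also of the sham groups of day 3 and day 7. Over the 3 days the log2 fold change of Rpn13R was 1.06 (SE 0.34, adjusted p = 0.188). Rpt3R reached 1.13 TPM, in TBI replicate 1 of day 7, and Rpt4R stood above 0 in 2 libraries, at 1.74 TPM in TBI replicate 2 of day 7 and 1.13 TPM in sham replicate 3 of day 3. Prosalpha3T had the lowest unadjusted p of any member on day 7 (0.563 and 0.505 TPM in TBI, listed at 0 in the sham libraries, adjusted p = 0.717), and was under 1 TPM everywhere.

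**Figure D4:**
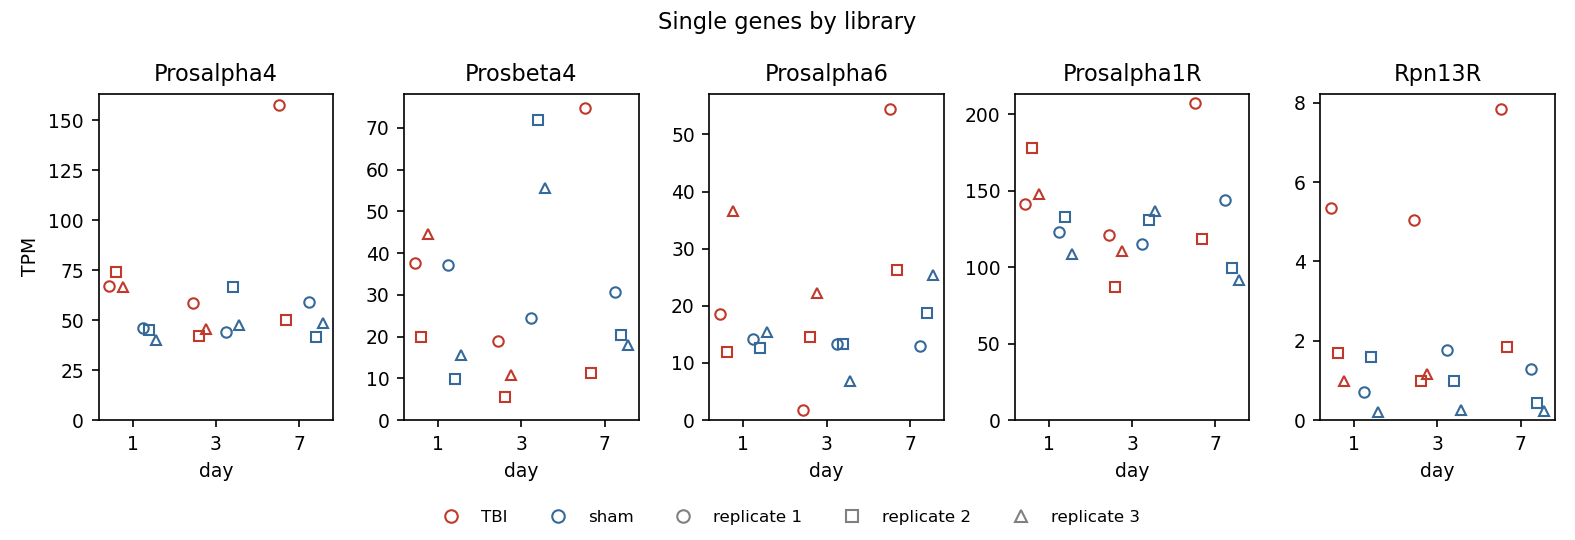
TPM (axes from 0) of Prosalpha4, Prosbeta4, Prosalpha6, Prosalpha1R and Rpn13R in each library by day, TBI in red left of sham in blue, marker shape giving the replicate number. Prosalpha4 is apart between the arms on day 1 (66.8 to 74.3 TPM in TBI and 40.3 to 46.1 TPM in sham), and TBI replicate 1 of day 7 is the highest point in all 5 panels.

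Other genes of the ubiquitin-proteasome pathway, from a list of 34, had no common direction on day 1. Of the 29 tested, 14 were higher in TBI on day 1, the median being −0.01 on the log2 scale, and 0 were called, with 3 higher and 2 lower where the unadjusted p was under 0.05, near the shares over all genes (9.85% higher and 8.34% lower). On day 3, 13 of 29 were higher (median −0.05) and 0 were called. On day 7, 25 of 29 were higher (median 0.22) and 0 were called. The median gene averaging at least 10 TPM stood at 0.21 that day, and 73.6% of such genes were higher. The highest on day 1 was the proteasome-bound deubiquitinase Uch-L5, at 15.6, 27.6 and 18.5 TPM in TBI against 11.5, 16.99 and 11.3 TPM in sham libraries (0.58, SE 0.12, adjusted p = 0.145). The other genes higher at that unadjusted p were Usp14, also a deubiquitinase that docks on the proteasome, and Pomp, the chaperone of core assembly. They were singled out after their values were seen. The lowest was maf-S, the small Maf partner of CncC, at 125, 157 and 136 TPM in TBI against 164, 205 and 165 TPM in sham libraries, without overlap (−0.35, SE 0.07, adjusted p = 0.144). The gene cnc, which encodes CncC among other products, was not called on any day.

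The extremes of the list on the other days were carried by few libraries. On day 3 they were Uch-L5 (−0.44, SE 0.25) and the ubiquitin ligase Ubr3 (0.33, SE 0.26). On day 7 maf-S was lowest (−0.38, SE 0.27), and the ubiquitin-conjugating enzyme eff was highest through 1 library, at 0.245 and 41.1 TPM in TBI against 0.0532, 0 and 0 TPM in sham libraries (2.83, SE 1.43, adjusted p = 0.717).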

How the data were processed

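Glial TRAP-seq RNA was measured in 17 libraries. It was amplified by T7 transcription before sequencing, which can distort relative levels. The authors deposited TPM, estimated by Kallisto on FlyBase transcripts, for which the methods name more than one release, and added up per gene by tximport. Values were used as log2(TPM + 1), and fold changes on that scale understate those of low genes. Every gene with a value over 0 TPM among the libraries compared was fitted with limma 3.58.1 (R 4.3.3, eBayes with trend). The replicate number was a block on days 1 and 3, as the study corrected for replicate batch, and not on day 7. Adjusted p-values are Benjamini-Hochberg over all genes tested, and called means a log2 fold change of 0.6 or more in size with an adjusted p of 0.1 or less. Where one library of a blocked fit is left out, its partner drops out too.

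The members and gene lists were chosen with earlier results of these data known. Values in single libraries are given mainly for members called, the 3 of lowest p per TBI comparison and the highest and lowest of each subcomplex. They also cover the catalytic subunits, Rpn11 and paralogs above 1 TPM. They are not given for every such member or for every day. Genes outside this rule are named only for the extremes. The script was tested on simulated data with 200 changed genes. Tables were handled in Python 3.11.15 with pandas 2.3.3 and figures drawn with matplotlib 3.10.9. No sequences are shown.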

Additional observations from a re-analysis of the deposited data

How the results depend on the processing

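Counts of called members were recomputed under each alternative. On day 1, where 1 member was called, 2 were called with a pseudocount of 0.1 (3.5% of all genes), 3 with genes averaging at least 1 TPM (7.82%), and 3 with values centred on genes averaging 10 TPM or more (5.16%), an alternative chosen after seeing the data. The count was 0 with all 17 libraries in one fit (2.31% of all genes called). It was 0 at an absolute log2 fold change of 1 and adjusted p of 0.05 (1.09%). With replicate 1, 2 or 3 of day 1 left out, 1.85%, 0.0852% and 0.603% of all genes were called on that day. Leaving out a replicate gave 0 to 0 called members on day 1, 0 to 12 on day 7, 0 to 2 for day 7 minus day 1, 0 to 7 for day 7 minus day 3 and 0 to 2 for the mean over the 3 days, the highest of the last 4 without TBI replicate 2 of day 7, where 11.6%, 2.76%, 8.01% and 8.8% of all genes were called in those comparisons, in that order. Without TBI replicate 1 of day 7, 1 TBI library was left on that day. In it the paralog Rpt4R stood at 1.74 TPM, against 0 in each sham library of day 7, and no call is drawn from that. Centring gave 2 for day 3 minus day 1, Prosalpha2 and Prosbeta7, with 2.06% of all genes called. No result reversed its direction while past a threshold. Scaling moved the day 7 median of genes averaging at least 10 TPM from 0.21 to −0.10.

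Without the replicate block 1 member was called on day 1 (2.99% of all genes) and 0 on day 3 (0.00845%), as with it. Then 9 rather than 17 of the 30 subunits passed an unadjusted p under 0.05 on day 1. With the block 0 were called on day 7 (0% of all genes). The correlation of the deviations of same-numbered libraries was 0.55, −0.02 and 0.30 on day 1, 0.53, 0.22 and −0.02 on day 3 and 0.34 and 0.20 on day 7 over 5349 genes, so not every pair was above 0.1 and the numbers were not shown to pair the libraries, although the fits of days 1 and 3 carry the block because the study corrected for replicate. TPM carry no depth, and what depth limits could not be assessed.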

Other observations

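Over the 17 libraries, the genes outside the complex whose log2 level most closely followed the mean of the 30 subunits were Set (Pearson r = 0.97), Nup43 (0.95), CG3226 (0.94), Nup50 (0.94) and CG8545 (0.94), out of 5318 genes averaging at least 10 TPM, whose median r was 0.14. Set encodes a histone chaperone, and Nup43 and Nup50 are subunits of the nuclear pore. Usp14, which docks on the proteasome, reached 0.93 and was singled out after its value was seen. These are correlations over libraries of 6 groups that also share day, arm and the presence of digestive protease RNA, and they describe likeness only.

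Of the 30 subunits, 12 overlap an exon of another gene in the BDGP6.54 annotation, each on the opposite strand, by at most 15.7% of exonic bases (Rpn9). Whether the quantification used strand is not given in the sources used here.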
